A study of Mus musculus with 8 samples.

Results

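Receptor tyrosine kinases are membrane proteins that bind a ligand outside the cell, pair up and phosphorylate tyrosines on their own tails, which then recruit adaptor proteins and switch on the RAS-MAPK, PI3K and PLC-gamma pathways. In the kidney several of them shape the branching collecting duct tree during development, and others serve its vessels, its supporting cells and its response to injury. Described here are 42 mouse genes of this class, taken by gene symbol from a table of 77981 genes. They comprise Ros1 and the MET family, the FGF receptors, the TAM family (Tyro3, Axl, Mertk), the collagen-binding discoidin domain receptors, the ephrin-binding Eph receptors, the insulin, ALK, RET and neurotrophin receptors, 3 receptors of vascular and blood cells, the Wnt-binding and MuSK group, and the LMR kinases with Styk1. The receptors of EGF, IGF1, PDGF, VEGF and CSF1, Kit and Tie1 were left out, apart from Flt4, a VEGF-C receptor on the list. The members were chosen by gene name, with earlier results of these data known, so the share of them that was called is a description.

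The RNA was from mouse kidney with the cell type label IMCD (inner medullary collecting duct), the segment in which vasopressin sets how much water is recovered from urine. There were 4 libraries of the genotype AVP-flox, whose Avp gene for vasopressin lies between a loxP site in its first intron and another downstream of its 3′ end, and 4 of the genotype AVP-flox;Cre, which also carries Cre recombinase. All 8 libraries carry the treatment label tamoxifen, the drug that activates inducible forms of Cre, so both groups received it and there was no group without it. The labels give no Cre driver, dose, time after tamoxifen, age or sex, nor whether each replicate was a different animal, so p-values may measure only the spread between these samples. The series title names an inducible Avp knockout line.

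The values are TPM, transcript abundance per length scaled to the same total in each library, so levels of different genes may be compared, but the read depth behind them is unknown. Avp, which is made mainly in the hypothalamus, reached at most 0.24 TPM among AVP-flox and 0.27 TPM among AVP-flox;Cre libraries, and so does not check the labels in this tissue. The 12 markers of principal and IMCD cells summed to between 21350 and 25170 TPM in AVP-flox and between 13430 and 15590 TPM in AVP-flox;Cre. Aqp2 alone had a mean of 16000 TPM in AVP-flox and 6304 TPM in AVP-flox;Cre, so the sum mainly follows that gene. The water channels Aqp2, Aqp3 and Aqp4 were lower and 5 other markers were higher. The number of genes above 0 TPM was 33576 for AVP-flox;Cre 2 and 50951 to 58232 for the rest. By sex-linked genes, AVP-flox 1 and AVP-flox;Cre 1 and 2 had the male pattern.

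Genes were tested where their mean TPM was 1 or more, and 34 of the 42 receptors reached this level. Of these, 12 were higher in AVP-flox;Cre, 8 were lower and 14 did not pass the threshold, an adjusted p of 0.05 in limma. That is 58.8% of the tested receptors called, against 27.3% of all 19043 genes tested (13.1% higher and 14.2% lower). The median log2 fold change was 0.37 over the tested receptors and -0.0075 over all tested genes. Calls were more frequent among abundant genes: 13 of the 16 receptors with a mean of at least 20 TPM were called against 39.9% of all genes at that level, 5 of 8 between 5 and 20 TPM against 30.7%, and 2 of 10 between 1 and 5 TPM against 12%. In all 20 called receptors the 4 libraries of 1 genotype lay wholly above the 4 of the other. Among the 34 tested receptors this held for 12 upward and 8 downward, against 14.7% and 14.9% of all tested genes. Of the 34, 5 were called and at least 2-fold higher by mean TPM, against 4.37% of all tested genes. Another 3 were called and at least 2-fold lower, against 3.55%. Ret, 1 of these 3, reached the test filter only through its AVP-flox values. The exact permutation test on each called receptor gave p = 0.029, the smallest p that 4 against 4 libraries allow. Full separation of the groups gives this p by itself, so it adds nothing to the separation.

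**Figure D1:**
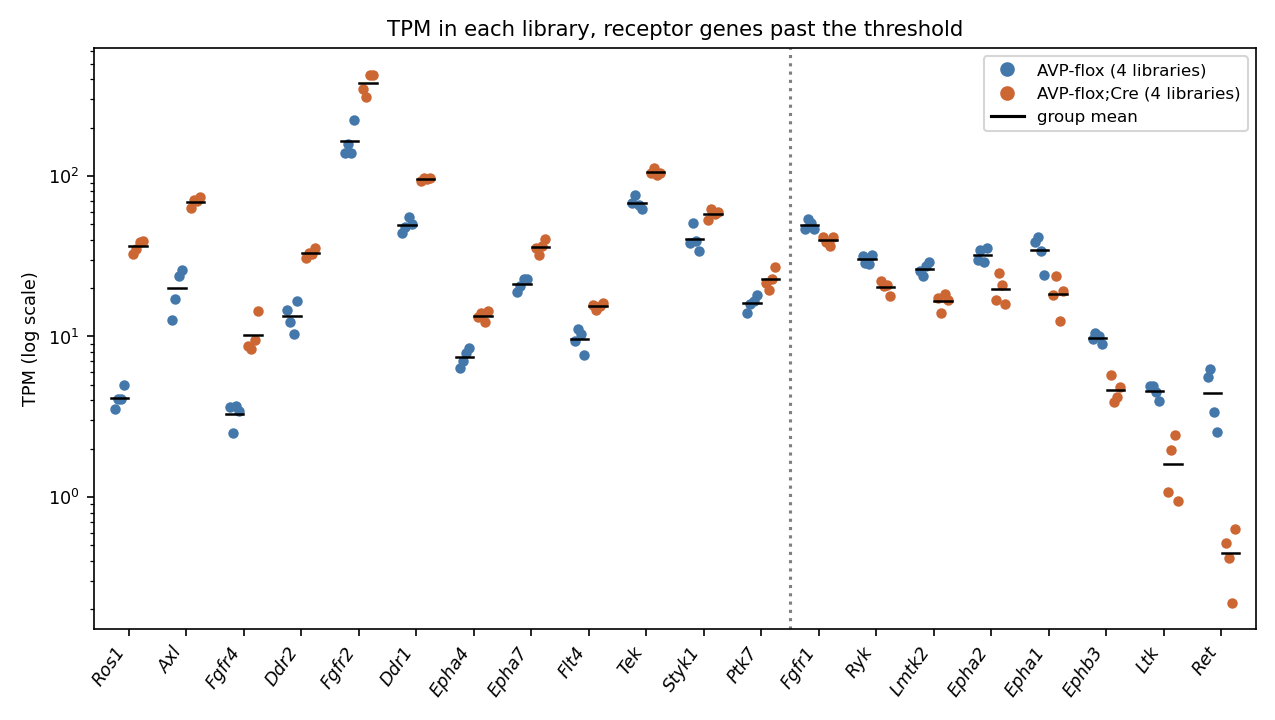
TPM of the 20 called receptors in each of the 8 libraries, on a logarithmic axis, with genes ordered by log2 fold change and points coloured by genotype. Ros1 shows the widest separation upward, from at most 4.95 to at least 32.8 TPM, and Ret the widest downward, from at least 2.54 to at most 0.63 TPM.

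**Figure D2:**
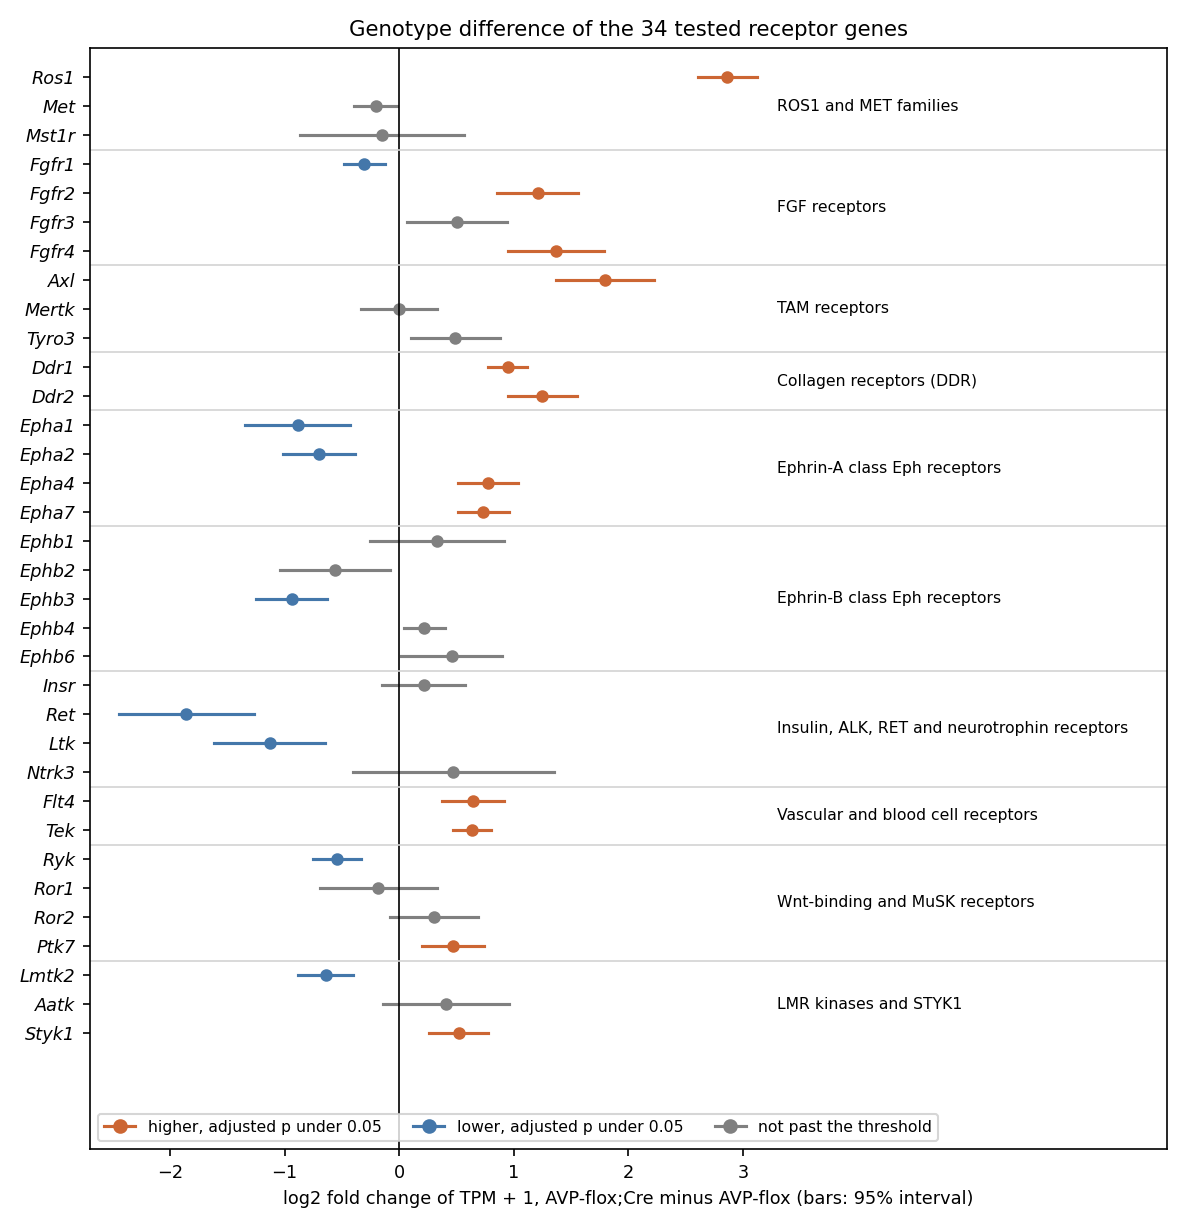
Log2 fold change of TPM + 1, AVP-flox;Cre minus AVP-flox, with its 95% interval for the 34 tested receptors, grouped by family. The families are not uniform: both collagen receptors were higher, while the FGF and ephrin-A class receptors include called genes on both sides of 0.

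Upstream sequence was looked up for the receptors in RefSeq's mouse assembly GRCm38.p6, since vasopressin acts in collecting duct cells through cyclic AMP and the factor CREB, which binds the cyclic AMP response element (CRE). In all, 37 of the 42 receptors had an entry, with 47 start sites. The windows of 4 called receptors are printed 5′ to 3′ on the gene's strand, each covering the 250 bases before the start. Ros1 and Axl are shown as the receptors with the largest rises, and Epha2 and Ephb3 as receptors that fell and hold a CRE core. Epha2 and Ephb3 were picked for that core, so the 4 windows do not compare rises with falls. Capitals mark the CRE core TGACG, or the full element TGACGTCA that contains it, and the GC box GGGCGG, each on either strand.
Ros1, chr10:52195245-52195494, minus strand: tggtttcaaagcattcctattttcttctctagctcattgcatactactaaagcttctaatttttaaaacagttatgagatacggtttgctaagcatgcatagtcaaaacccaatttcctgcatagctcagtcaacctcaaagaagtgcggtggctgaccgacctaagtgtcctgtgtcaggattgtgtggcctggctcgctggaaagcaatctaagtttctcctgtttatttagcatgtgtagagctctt
Axl, chr7:25788734-25788983, minus strand: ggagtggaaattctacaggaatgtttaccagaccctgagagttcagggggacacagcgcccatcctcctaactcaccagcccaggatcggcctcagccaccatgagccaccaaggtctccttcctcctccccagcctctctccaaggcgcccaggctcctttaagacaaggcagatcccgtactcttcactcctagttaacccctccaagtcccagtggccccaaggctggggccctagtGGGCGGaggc
Epha2, chr4:141300971-141301220, plus strand: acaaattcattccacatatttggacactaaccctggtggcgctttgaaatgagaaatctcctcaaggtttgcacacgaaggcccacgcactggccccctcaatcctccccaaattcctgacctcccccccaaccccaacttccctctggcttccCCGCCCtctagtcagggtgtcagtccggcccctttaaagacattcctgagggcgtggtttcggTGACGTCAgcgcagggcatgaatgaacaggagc
Ephb3, chr16:21204545-21204794, plus strand: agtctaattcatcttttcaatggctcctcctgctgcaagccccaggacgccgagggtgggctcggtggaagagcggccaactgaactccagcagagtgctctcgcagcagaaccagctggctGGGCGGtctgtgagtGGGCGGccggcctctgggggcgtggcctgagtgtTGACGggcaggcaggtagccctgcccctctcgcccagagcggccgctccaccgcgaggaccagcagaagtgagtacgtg

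Ros1's window held none of the capitalised motifs and had a GC content of 41.6%, against 60.0% for Axl, 55.6% for Epha2 and 65.6% for Ephb3. The full CRE was found in 1 of the 47 receptor windows, that of Epha2, and in 1.55% of the 32851 windows of all genes. The CRE core was in 17.0% of receptor windows and in 17.8% of all windows. By call, it was in 2 of 15 windows of receptors that were higher, those of Epha4 and Ptk7. These 15 windows came from 11 genes, so some genes were counted more than once. It was in 3 of 6 windows, from 6 genes, of receptors that were lower, those of Epha2, Ephb3 and Lmtk2. The lower receptors Epha1, Ltk and Ryk held none. The called receptors Ret, Fgfr1 and Styk1 had no entry. The GC box was in 61.7% of receptor windows and 32.7% of all windows, and the median GC content was 63.6% and 52.4%. The AP-1 motif TGANTCA was in 6.38% of receptor windows and 6.75% of all windows. Neither the interferon-stimulated response element (2.98% of all windows) nor the oestrogen response element (0.0639%), the latter searched because tamoxifen binds oestrogen receptors, was in any receptor window. These matches describe letters in a short window and no binding was measured.

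Ros1, a receptor with a ligand, Nell2, known from the epididymis, rose most. Its TPM was 3.55, 4.07, 4.07 and 4.95 in AVP-flox 1 to 4, and 32.8, 35.0, 38.8 and 39.4 in AVP-flox;Cre 1 to 4. Every AVP-flox;Cre library was several times above every AVP-flox library, and the libraries of each genotype lay close together. Mean TPM went from 4.16 ± 0.581 to 36.5 ± 3.10 (SD, n = 4 per genotype here and below), an 8.77-fold rise, with a log2 fold change of 2.86 (SE 0.12, 95% interval 2.61 to 3.12, adjusted p = 3.07e-06). By log2 fold change it ranked 15 among the 19043 genes tested. Ordered by mean TPM among the 42 receptors, Ros1 moved from 25 in AVP-flox to 9 in AVP-flox;Cre. Nell2 was below the test filter, at no more than 0.39 TPM in any library. As in all these bulk samples, more cells of a type and more RNA per cell cannot be told apart.

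The MET family did not follow Ros1. Met, the receptor for hepatocyte growth factor in epithelial cells, had 97.7, 109.8, 108 and 105 TPM in AVP-flox and 92.7, 85.8, 82.8 and 104 TPM in AVP-flox;Cre. AVP-flox;Cre 4 fell within the AVP-flox range, so the groups overlapped. The log2 fold change was -0.21 (SE 0.08, 95% interval -0.39 to -0.02, adjusted p = 0.0959), from a mean of 105 ± 5.41 to 91.4 ± 9.55 TPM. Mst1r, the receptor for macrophage-stimulating protein, stood at 0.35 to 2.20 TPM over the 8 libraries (log2 fold change -0.15, 95% interval -0.86 to 0.56, adjusted p = 0.770). Met was the second most abundant of the 42 receptors in AVP-flox and ranked 4 in AVP-flox;Cre, behind Fgfr2, Tek and Ddr1.

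FGF receptors bind fibroblast growth factors, and Fgfr2 is the main one of ureteric bud and collecting duct epithelium. Fgfr2 was the most abundant receptor of the 42 in both genotypes and rose further: 138, 158, 139.8 and 223 TPM in AVP-flox against 349.8, 311, 422 and 428 TPM in AVP-flox;Cre. AVP-flox 4 stood above the other AVP-flox libraries and still below every AVP-flox;Cre library. The means were 165 ± 40.0 and 378 ± 56.8 TPM, a 2.29-fold rise (log2 fold change 1.21, SE 0.16, adjusted p = 0.000601). Fgfr4, a receptor best known from liver, where it mediates bile acid feedback, had 3.63, 2.50, 3.67 and 3.43 TPM in AVP-flox and 8.72, 8.34, 9.51 and 14.5 TPM in AVP-flox;Cre. All AVP-flox;Cre libraries lay above the AVP-flox range, AVP-flox;Cre 4 the farthest. The rise was 3.10-fold, from 3.31 ± 0.548 to 10.3 ± 2.86 TPM (1.37 on the log2 scale, SE 0.19, adjusted p = 0.000727).

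Fgfr1, the FGF receptor typical of mesenchymal cells, went the other way by a small amount. Its TPM was 46.5, 53.6, 50.7 and 46.7 in AVP-flox and 41.8, 38.9, 36.6 and 41.6 in AVP-flox;Cre. The groups were separate but near each other, 49.4 ± 3.43 against 39.7 ± 2.46 TPM, 1.24-fold lower (log2 fold change -0.31, SE 0.08, adjusted p = 0.0183). This call was lost without AVP-flox 3 (adjusted p = 0.0534) or without AVP-flox;Cre 3 (adjusted p = 0.0550). Fgfr3 had 3.00 to 5.86 TPM in AVP-flox and 4.74 to 6.74 TPM in AVP-flox;Cre and did not pass (log2 fold change 0.50, 95% interval 0.07 to 0.94, adjusted p = 0.0821). Fgfr2 made up 70.9% to 80.0% of the summed TPM of the 4 FGF receptors in AVP-flox and 85.3% to 88.9% in AVP-flox;Cre, while Fgfr1 went from 16.7% to 25.7% down to 7.71% to 10.7%. Fgfr2 shares exon sequence on the same strand with Ctbp2 in the GENCODE M21 annotation, so their reads may be split between them. Ctbp2 had 44.0 to 49.3 TPM in AVP-flox and 50.6 to 57.8 TPM in AVP-flox;Cre (adjusted p = 0.0646).

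**Figure D3:**
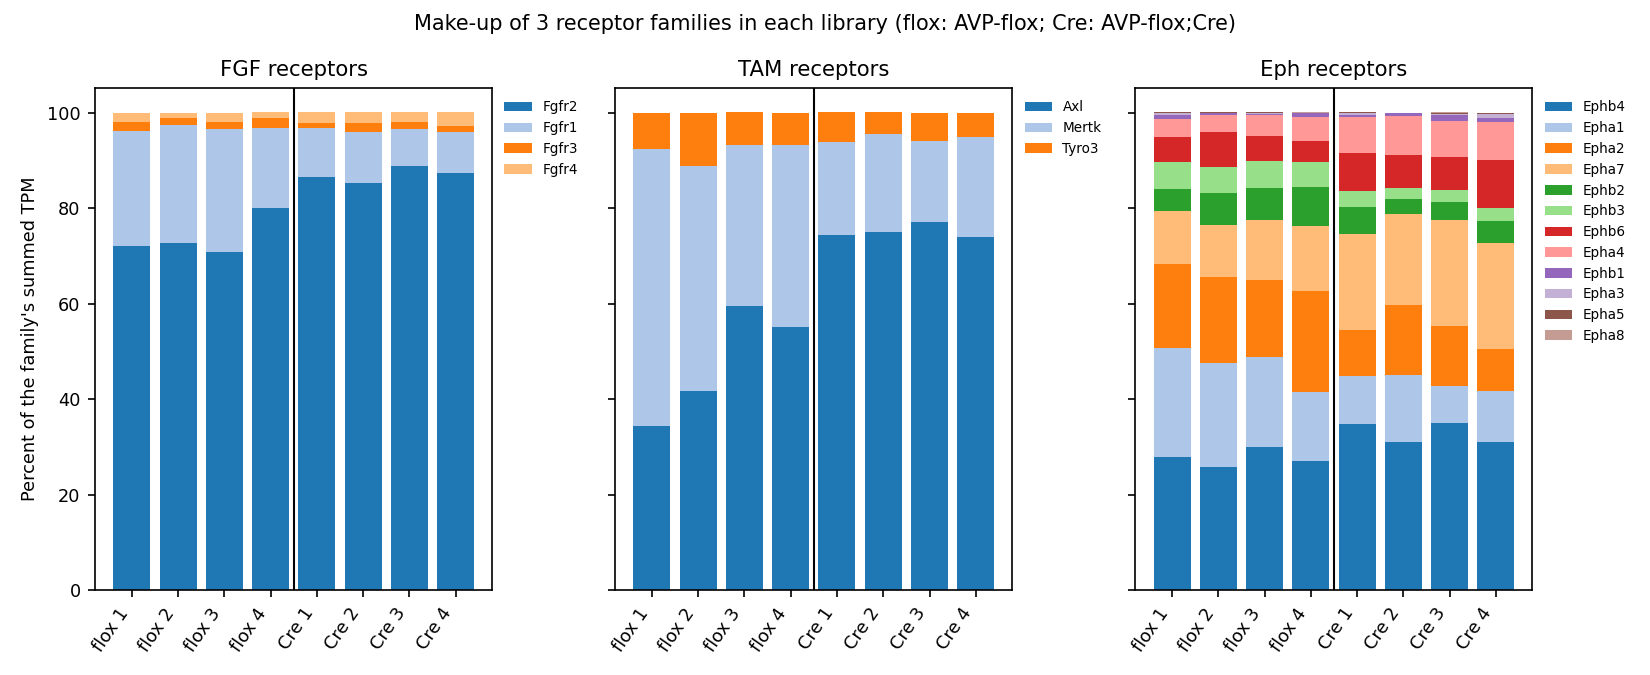
Stacked bars of each receptor's percent of the summed TPM of its family in each library, for FGF, TAM and Eph receptors. The share of Fgfr2 is 85.3% to 88.9% and that of Axl 74.0% to 77.0% in AVP-flox;Cre, both above their AVP-flox ranges.

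TAM receptors recognise dying cells and cell debris through the bridging ligands Gas6 and Protein S (Pros1). Axl had 12.6, 17.1, 23.8 and 26.0 TPM in AVP-flox and 63.2, 70.4, 69.3 and 73.8 TPM in AVP-flox;Cre. The AVP-flox libraries were more spread than the AVP-flox;Cre libraries, and the groups stood far apart. The mean went from 19.9 ± 6.17 to 69.2 ± 4.40 TPM, 3.48-fold (log2 fold change 1.80, SE 0.19, adjusted p = 0.000189), rank 99 among all rises. Mertk, the TAM receptor of phagocytic macrophages, stood at 21.3, 19.4, 13.6 and 18.0 TPM in AVP-flox and 16.6, 19.4, 15.3 and 20.7 TPM in AVP-flox;Cre. The libraries of both genotypes were intermixed, and the 95% interval of its log2 fold change was -0.33 to 0.33 (adjusted p = 0.993). Tyro3, with 2.70 to 4.60 TPM in AVP-flox and 4.21 to 5.36 TPM in AVP-flox;Cre, did not pass (log2 fold change 0.49, 95% interval 0.10 to 0.88, adjusted p = 0.0637). Axl thus went from 34.3% to 59.4% of the family's TPM to 74.0% to 77.0%, and Mertk from 33.9% to 58.1% down to 17.0% to 20.8%. Of 8 tested markers of macrophages and other leukocytes 1 was higher (Csf1r), and their sum was 133 to 218 TPM in AVP-flox and 154 to 248 TPM in AVP-flox;Cre.

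Discoidin domain receptors bind fibrillar and basement membrane collagens, Ddr1 mainly in epithelia and Ddr2 mainly in mesenchymal cells. Both rose. Ddr1 had 44.2, 48.0, 55.4 and 49.9 TPM in AVP-flox and 92.7, 97.7, 95.6 and 96.9 TPM in AVP-flox;Cre, 1.94-fold higher (49.4 ± 4.65 and 95.7 ± 2.18 TPM, log2 fold change 0.95, SE 0.08, adjusted p = 4.93e-05). Ddr2 had 14.6, 12.3, 10.3 and 16.6 TPM in AVP-flox and 30.6, 33.3, 32.4 and 35.6 TPM in AVP-flox;Cre. Its mean rose 2.45-fold, from 13.5 ± 2.73 to 33.0 ± 2.05 TPM (1.25 on the log2 scale, SE 0.14, adjusted p = 0.000201). Exons of both genes overlap another gene, Ddr1 with Gm4577 and Ddr2 with 3110045C21Rik, each on the opposite strand, so some reads may belong to either. 3110045C21Rik had 8.95 to 9.87 TPM in AVP-flox and 9.40 to 16.9 TPM in AVP-flox;Cre and was not called. In each discoidin domain receptor the AVP-flox;Cre libraries sat in a narrow band well above the AVP-flox libraries. The 11 markers of fibroblasts, pericytes and smooth muscle summed to 145 to 199 TPM in AVP-flox and 297 to 369 TPM in AVP-flox;Cre. Of the 10 tested, 4 were higher (Pdgfra, Col1a2, Acta2, Tagln) and 6 did not pass, Col1a1 among them at a mean of 1.23 and 1.04 TPM, and Lum was at most 0.55 TPM. Their part in the results for Ddr2, Axl and Fgfr1 was not tested.

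Eph receptors signal at contacts with cells that carry ephrins, and they set boundaries between cell groups. Their summed TPM was much the same in both genotypes, 177.6 ± 10.6 against 173.5 ± 7.2, but its composition differed. Among the 4 tested ephrin-A class receptors 2 fell and 2 rose. Epha1, found in many epithelia, had 38.8, 41.9, 34.0 and 24.3 TPM in AVP-flox and 18.0, 23.9, 12.5 and 19.2 TPM in AVP-flox;Cre. Its groups nearly met, AVP-flox 4 being just above AVP-flox;Cre 2. The mean was 1.89-fold lower, 34.8 ± 7.69 against 18.4 ± 4.68 TPM (log2 fold change -0.89, SE 0.21, adjusted p = 0.0108). Epha1 overlaps exons of Zyx on the opposite strand, and Zyx was also lower (log2 fold change -0.45, adjusted p = 0.0176). The counting is not stated to use strand, so reads in the shared stretch may belong to either gene. The length of that stretch was not measured.

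Epha2, the receptor for ephrin-A ligands in epithelia and vessels whose window above holds the full CRE, had 29.9, 34.5, 28.9 and 35.7 TPM in AVP-flox and 17.0, 24.9, 21.1 and 15.9 TPM in AVP-flox;Cre. All AVP-flox;Cre libraries were below the AVP-flox range, by 1.64-fold on average (32.3 ± 3.34 and 19.7 ± 4.10 TPM, log2 fold change -0.70, SE 0.14, adjusted p = 0.00564). Epha4, which binds ephrins of both classes, rose 1.80-fold, with 6.39, 7.00, 7.94 and 8.51 TPM in AVP-flox and 13.1, 14.0, 12.3 and 14.3 TPM in AVP-flox;Cre (log2 fold change 0.78, SE 0.12, adjusted p = 0.00124). Epha7, known from axon guidance, rose 1.70-fold, with 18.9, 20.7, 22.9 and 22.8 TPM in AVP-flox and 35.8, 32.0, 36.7 and 40.2 TPM in AVP-flox;Cre (log2 fold change 0.74, SE 0.10, adjusted p = 0.000629). Neither Epha4 nor Epha7 had overlapping groups. Of the Eph total, Epha1 took 14.4% to 22.8% in AVP-flox and 7.56% to 14.1% in AVP-flox;Cre, and Epha7 10.8% to 13.5% and 18.9% to 22.2%.

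In the ephrin-B class 1 of 5 tested receptors was called. Ephb3, which with Ephb2 positions epithelial cells in the gut, had 9.60, 10.6, 10.04 and 9.00 TPM in AVP-flox and 5.77, 3.91, 4.17 and 4.81 TPM in AVP-flox;Cre. The fall was 2.10-fold with no overlap (9.80 ± 0.662 and 4.67 ± 0.828 TPM, log2 fold change -0.94, SE 0.14, adjusted p = 0.00101). Ephb2 had 7.87, 12.8, 12.0 and 13.7 TPM in AVP-flox and 10.3, 5.45, 6.24 and 8.44 TPM in AVP-flox;Cre, which overlap (log2 fold change -0.56, 95% interval -1.04 to -0.08, adjusted p = 0.0795). Ephb4, the ephrin-B2 receptor of veins and the most abundant Eph receptor here, had 47.4, 49.2, 53.7 and 45.7 TPM in AVP-flox and 62.1, 52.6, 58.0 and 56.1 TPM in AVP-flox;Cre. AVP-flox 3 lay above AVP-flox;Cre 2, and the difference did not pass (49.0 ± 3.43 and 57.2 ± 3.96 TPM, log2 fold change 0.22, SE 0.08, adjusted p = 0.0701). Ephb1 and the kinase-inactive Ephb6 did not pass either (adjusted p = 0.391 and 0.116).

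Among the insulin, ALK, RET and neurotrophin receptors, none of 4 tested genes was higher and 2 were lower. Ret, which GDNF uses to drive branching of the ureteric bud, had 5.58, 6.28, 3.38 and 2.54 TPM in AVP-flox and 0.52, 0.42, 0.22 and 0.63 TPM in AVP-flox;Cre. Every AVP-flox;Cre library was below 1 TPM and every AVP-flox library above it, with a wide spread among the latter. The mean fell 9.93-fold, from 4.45 ± 1.77 to 0.448 ± 0.174 TPM (-1.86 on the log2 scale, SE 0.27, adjusted p = 0.000893). The fitted log2 value of so low a gene rests on the pseudocount and ran from -3.03 with 0.1 to -0.78 with 5. Ret reached the test filter only through its AVP-flox values, so its call is not independent of that difference. By level among the 42 receptors Ret went from 24 to 39.

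Ltk, a leukocyte tyrosine kinase related to Alk, also fell: 4.89, 4.91, 4.52 and 3.97 TPM in AVP-flox and 1.08, 1.97, 2.45 and 0.94 TPM in AVP-flox;Cre. The groups were separate, 4.57 ± 0.440 against 1.61 ± 0.722 TPM, 2.84-fold lower (log2 fold change -1.13, SE 0.22, adjusted p = 0.00435). Insr, the insulin receptor, had 18.6, 26.5, 22.9 and 25.7 TPM in AVP-flox and 25.6, 37.1, 25.2 and 22.5 TPM in AVP-flox;Cre. The groups overlapped, and the highest library, AVP-flox;Cre 2, set much of the difference (23.4 ± 3.57 and 27.6 ± 6.51 TPM, log2 fold change 0.21, SE 0.16, adjusted p = 0.373), which was 0.07 without it. Ntrk3, the receptor for neurotrophin-3, ranged from 0.06 TPM in AVP-flox;Cre 2 to 3.48 TPM in AVP-flox;Cre 4 (adjusted p = 0.416).

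Receptors of vessels rose by similar amounts. Tek, the angiopoietin receptor of endothelium, had 67.3, 75.6, 65.6 and 62.5 TPM in AVP-flox and 104, 111, 102 and 105 TPM in AVP-flox;Cre. Its groups were tight and far apart, a 1.56-fold rise (log2 fold change 0.63, SE 0.07, adjusted p = 0.000299). Flt4, the VEGF-C receptor of lymphatic and some fenestrated endothelium, had 9.33, 11.1, 10.4 and 7.72 TPM in AVP-flox and 15.7, 14.5, 15.5 and 16.3 TPM in AVP-flox;Cre, 1.61-fold higher with no overlap (log2 fold change 0.64, SE 0.12, adjusted p = 0.00379). Of the 10 endothelial markers 5 were higher (Kdr, Tie1, Eng, Vwf and Esam) and 2 lower (Pecam1 and Emcn), with a median log2 fold change of 0.33. Their sum, most of it Plvap and Emcn, was 2892 to 2998 TPM in AVP-flox and lower, 2727 to 2825 TPM, in AVP-flox;Cre. The part of these markers in the results for Tek and Flt4 was not tested. Of the 4 lymphatic markers Pdpn was higher, Prox1 had a mean of 22.1 TPM in AVP-flox and 17.4 TPM in AVP-flox;Cre and did not pass (log2 fold change -0.36, adjusted p = 0.174), Lyve1 was at most 0.36 TPM and Ccl21a at most 0.12 TPM. Flt3, the FLT3 ligand receptor of blood progenitors and dendritic cells, was below the test filter. It had 0.31, 0.22, 0.29 and 0.27 TPM in AVP-flox and 0.86, 1.61, 1.69 and 2.25 TPM in AVP-flox;Cre, with no overlap. With no filter on low values its log2 fold change was 1.00 (adjusted p = 0.0206).

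The Wnt-binding group split. Ryk, a kinase-inactive Wnt co-receptor, had 31.8, 28.5, 28.3 and 32.3 TPM in AVP-flox and 22.2, 20.6, 20.9 and 17.9 TPM in AVP-flox;Cre, 1.48-fold lower (log2 fold change -0.55, SE 0.09, adjusted p = 0.00235). Ptk7, a kinase-inactive receptor of planar cell polarity, had 13.9, 15.8, 16.7 and 18.1 TPM in AVP-flox and 21.6, 19.6, 22.9 and 27.2 TPM in AVP-flox;Cre, 1.42-fold higher (log2 fold change 0.47, SE 0.12, adjusted p = 0.0167). Neither gene's groups overlapped, though for Ptk7 AVP-flox 4 and AVP-flox;Cre 2 were close. The Wnt5a receptors Ror1, at 0.65 to 1.44 TPM over the 8 libraries, and Ror2, at 1.83 to 3.66 TPM, did not pass (adjusted p = 0.605 and 0.226).

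LMR kinases are membrane proteins classed here by sequence, although Lmtk2 phosphorylates serine and threonine. Lmtk2 had 25.4, 23.7, 27.6 and 29.0 TPM in AVP-flox and 17.4, 14.0, 18.3 and 16.8 TPM in AVP-flox;Cre, 1.59-fold lower with no overlap (log2 fold change -0.64, SE 0.11, adjusted p = 0.00206). Styk1, a receptor-like kinase with little outside the membrane, had 38.3, 50.6, 39.6 and 34.2 TPM in AVP-flox and 52.9, 62.5, 57.9 and 59.5 TPM in AVP-flox;Cre. AVP-flox 2 came close to AVP-flox;Cre 1 without reaching it (1.43-fold higher, log2 fold change 0.52, SE 0.12, adjusted p = 0.00892). Aatk, at 1.53 to 5.15 TPM, did not pass (adjusted p = 0.257).

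The 8 receptors too low to test were Epha3, Epha5, Epha8, Alk, Ntrk2, Flt3, Musk, the agrin-responsive kinase of the neuromuscular junction, and Lmtk3. Alk and Epha8 were listed at 0 in AVP-flox;Cre 2. That library was the lowest of the AVP-flox;Cre libraries for 6 of these 8 genes, and AVP-flox;Cre 4 was the highest for 6 of them. Over all 42 receptors the counts were 18 and 23. Exons of 9 receptors overlap another gene in GENCODE M21: besides Fgfr2, Epha1, Ddr1 and Ddr2 these are Fgfr1, Fgfr3, Ephb1, Ephb4 and Lmtk3, and their values carry the same uncertainty.

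The GC content of the first 300 nt of the longest transcript differed between the called groups, with a median of 53.0% for receptors that were higher, 65.5% for those that were lower, 69.8% for those not past the threshold and 58.3% for all tested genes. The AVP-flox;Cre libraries 2 to 4 were low for the 1624 more abundant genes above 70% GC there. Their median deviations were -0.13, -0.05 and -0.08 on the log2 scale, against 0.04 in AVP-flox;Cre 1 and 0.04 to 0.11 in AVP-flox. After each library was corrected for this trend 14 receptors were higher and 7 lower. Fgfr1 was then no longer called (adjusted p = 0.0638), while Fgfr3 (adjusted p = 0.0406) and Ephb4 (adjusted p = 0.0161) were called higher.

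Ligands of these receptors were examined as lists, beside the same background of 27.3% of genes called. Of 8 ephrins none was higher and 1 was lower, Efna2, from 3.19 ± 0.565 to 1.14 ± 0.443 TPM (-0.99 on the log2 scale, SE 0.22, adjusted p = 0.00847), with a list median of 0.12. Among the FGFs and klotho co-receptors 8 of 12 were tested, 2 were higher and 2 lower. Fgf12, an intracellular FGF that does not act as a classical receptor ligand, rose from 7.78 ± 1.06 to 19.9 ± 1.41 TPM (adjusted p = 8.40e-05), and Fgf1, which binds all FGF receptors, from 56.7 ± 6.20 to 78.3 ± 5.53 TPM (adjusted p = 0.00542). Fgf9 fell from 21.6 ± 3.04 to 13.4 ± 1.01 TPM (adjusted p = 0.00359), and Fgf18 fell from 13.4 ± 0.984 to 5.55 ± 2.44 TPM (adjusted p = 0.00451).

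Of the remaining ligands 18 of 22 were tested, 7 were higher and 1 was lower, with a median log2 fold change of 0.35. Angpt4, a ligand of Tek, rose most of the list, from 2.53 ± 0.340 to 16.3 ± 2.30 TPM (2.29 on the log2 scale, SE 0.14, adjusted p = 1.38e-05). Pros1, the TAM ligand, rose from 24.6 ± 2.70 to 46.4 ± 4.82 TPM (adjusted p = 0.000289), and Agrn, the heparan sulphate proteoglycan agrin, from 139 ± 22.7 to 239 ± 14.3 TPM (adjusted p = 0.000775). Artn, a GDNF family ligand that signals through Ret, fell from 9.27 ± 0.669 to 2.76 ± 0.699 TPM (-1.47 on the log2 scale, SE 0.16, adjusted p = 0.000221). Gas6 (170.5 ± 24.7 to 248 ± 15.1 TPM, adjusted p = 0.00369) and Wnt5a (60.6 ± 1.98 to 84.2 ± 8.47 TPM, adjusted p = 0.00252), named after their values were seen, also rose, as did Angpt1 and Mst1. Mst1 lost its call when any library but AVP-flox 2 or AVP-flox;Cre 1 was left out (adjusted p = 0.0532 to 0.0742). Gdnf was below the filter, at no more than 0.16 TPM.

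**Figure D4:**
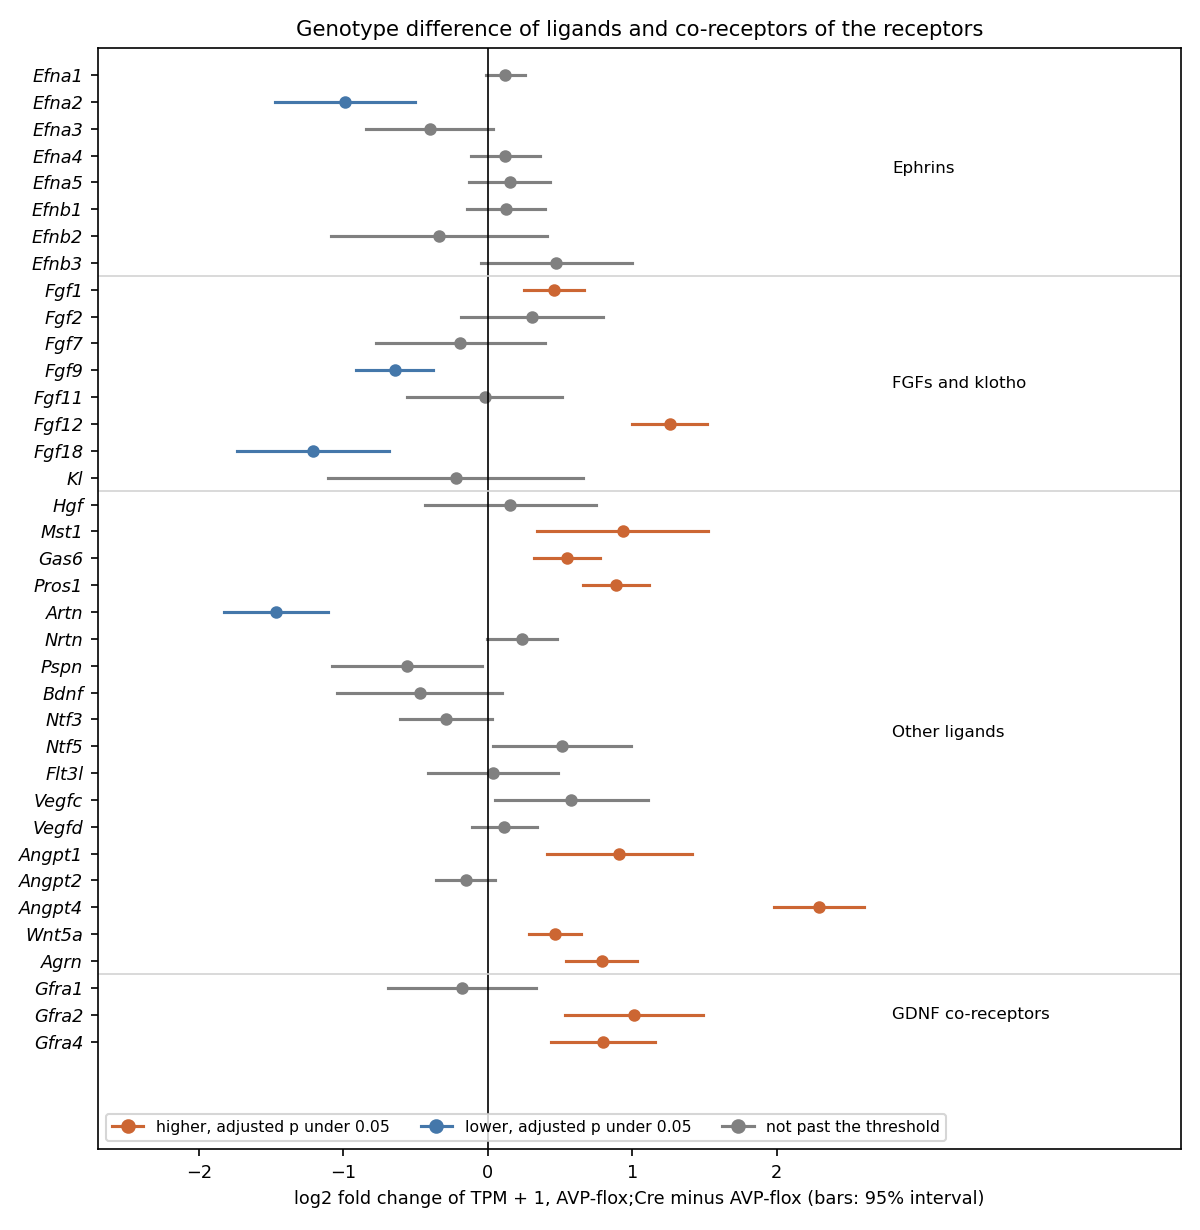
Log2 fold change of TPM + 1, AVP-flox;Cre minus AVP-flox, with its 95% interval, for the tested ephrins, FGFs and klotho, other ligands and GDNF co-receptors. Angpt4 lies highest at 2.29 and Artn lowest at -1.47, while 7 of 8 ephrins are not past the threshold.

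Of 3 tested GDNF co-receptors, which hold the ligand for Ret, 2 were higher and none lower. Gfra4 rose from 7.40 ± 1.48 to 13.6 ± 2.29 TPM (log2 fold change 0.80, adjusted p = 0.00555), while Gfra1 did not pass. Gfra3 was below the test filter, at no more than 0.09 TPM in any library. Gfra2 rose from 0.42 ± 0.169 to 1.87 ± 0.245 TPM (log2 fold change 1.01, adjusted p = 0.00709). At 0.22 to 0.62 TPM in AVP-flox, Gfra2 reached the test filter only through AVP-flox;Cre, so its call is not independent of that difference. Its log2 value ran from 0.34 to 1.97 over the alternatives that tested it. Downstream of the receptors fewer genes were called. Of 24 tested adaptors and RAS-MAPK input genes 1 was higher and 3 were lower (16.7% called, median log2 fold change 0.04). Gab1, the docking protein that binds Met, rose from 38.8 ± 2.43 to 59.7 ± 6.77 TPM (adjusted p = 0.00140). Plcg2 and Hras were called lower (adjusted p = 0.0287 and 0.0360), but their groups overlapped. Plcg2 lost its call without AVP-flox 1, 2 or 3 or AVP-flox;Cre 3 or 4 (adjusted p = 0.0654 to 0.0768), and Hras without any library but AVP-flox;Cre 1 (adjusted p = 0.0585 to 0.0848).

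Of 19 tested feedback regulators and ERK targets 1 was higher and 2 were lower (15.8% called, median log2 fold change 0.03). Spry1, a feedback inhibitor of Ret and FGF receptor signalling, rose from 5.52 ± 1.48 to 9.81 ± 2.05 TPM (adjusted p = 0.0226). The phosphatase gene Ptprj fell from 26.2 ± 4.20 to 16.7 ± 2.77 TPM (adjusted p = 0.0104), and Spred1, an inhibitor of RAS activation, from 7.99 ± 1.92 to 4.25 ± 1.55 TPM (adjusted p = 0.0257). Spry1 lost its call without AVP-flox;Cre 2 (adjusted p = 0.0570) or 4 (0.0511), and Spred1 without AVP-flox 3 or 4 or AVP-flox;Cre 2, 3 or 4 (adjusted p = 0.0585 to 0.0740). Ptprj lost its call in 1 of the 25 alternatives (adjusted p = 0.110).

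Markers of other cell types that such a sample can hold are given as measured, and their part in the receptor results above was not tested. The 9 markers of the papillary surface and urothelium summed to 1918 to 2890 TPM in AVP-flox and 5122 to 5919 TPM in AVP-flox;Cre, with 6 higher and 1 lower. Psca alone had a mean of 2059 TPM in AVP-flox and 4836 TPM in AVP-flox;Cre, so this sum mainly follows that gene. Intercalated cell markers summed to 263 to 398 and 385 to 514 TPM, with 5 of 9 tested higher. Proximal tubule markers ranged from 69.0 to 853 TPM in AVP-flox and from 134 to 340 TPM in AVP-flox;Cre, with none of 8 tested called. Thick limb and distal tubule markers summed to 2404, 391, 2036 and 2076 TPM in AVP-flox 1 to 4. In AVP-flox;Cre they summed to 610 to 925 TPM, below every AVP-flox library but AVP-flox 2. Of the 7 tested 1 was higher, Cldn16. Nerve and Schwann cell markers summed to 30.7 to 46.1 and 24.8 to 37.3 TPM, with 1 of 4 tested lower.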

How the data were processed

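The authors deposited 1 table of TPM values, with a row per mouse gene and a column per library. The submitters' processing notes list STAR and RSEM but no versions, and the genome build is not given in the sources used here. Each column sums to 1000000 within 2.04, and TPM keeps no depth, so no counting interval is given. WT columns were taken for AVP-flox and KO columns for AVP-flox;Cre, matched by replicate number. Of 78298 identifiers, 21883 had no symbol, and 312 shared symbols were summed, leaving 77981 genes.

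With R 4.3.3, limma 3.58.1 and statmod 1.5.0, limma with a trend was fitted to log2(TPM + 1) of the 19043 genes whose mean reached 1 TPM. Tests were two-sided at a threshold of 0.05 after Benjamini-Hochberg adjustment over these genes. The log2(TPM + 1) scale understates changes of low genes. Folds are ratios of mean TPM, and single genes were also compared by an exact permutation test. GC content and exon overlaps came from GENCODE M21, which matched all 42 receptors and 87.4% of tested genes. Promoter windows came from RefSeq (GRCm38.p6). The script was tested on simulated data.

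All 42 receptors are accounted for, with full values for those called or with a mean of at least 20 TPM in either genotype, and up to 4 called genes per list with the smallest adjusted p. The values of some genes that this rule names are not reported here. The members, the lists and the alternatives were chosen with earlier results of these data known. In all, 25 alternatives were run: a replicate block, pseudocounts, filters, scalings, limma options, sex pattern, protein-coding genes, GC correction, identifiers kept apart, a threshold of 0.1, each library left out, and AVP-flox 2 with AVP-flox;Cre 2 and 4 left out together.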

Additional observations from a re-analysis of the deposited data

Results flagged for a closer look

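Of 84 groups of 4 libraries examined, 2 held a library far from the other 3, and chance gives about 1 in 20. Ntrk2, the receptor for brain-derived neurotrophic factor, was 0.19 TPM in AVP-flox;Cre 2 against 1.59 to 1.78 TPM in the other AVP-flox;Cre libraries, and that library was the lowest of its genotype for 18 of the 42 receptors. Epha8, an Eph receptor of the nervous system, was 0.03 TPM in AVP-flox 3 against 0.02 TPM in the other AVP-flox libraries, a difference of the table's last decimal.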

How the results depend on the processing

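Over the 25 alternatives 11 to 15 receptors were higher and 6 to 10 lower, with 12 to 15 and 7 to 9 when each library was left out. Of the 20 called receptors 17 kept their call in every alternative that tested them. Ret, which is among the 17, and Ltk were not tested with the filter at 5 TPM. Fgfr1 lost its call in 7 alternatives, including median-of-ratios scaling (adjusted p = 0.0573) and no filter (0.0787). Ptk7 lost it with no filter (0.0606). With AVP-flox 2 and AVP-flox;Cre 2 and 4 left out together, Fgfr1 (0.120), Ptk7 (0.0919) and Ltk (0.0535) lost it, and 11 receptors were higher and 6 lower. That setting left 1378 genes higher and 1182 lower among all tested, against 2491 and 2713, and it fits fewer libraries. No filter gave 1643 lower genes, with more genes tested. Leaving out each library gave 2004 to 2529 higher and 1988 to 2436 lower genes. In the direction of change, Mertk and Mst1r, neither called, changed sign somewhere. Of the 14 tested receptors that were not called, 6 passed in at least 1 alternative, the threshold of 0.1 included. Flt3, below the test filter and not in this count, passed with no filter on low values (adjusted p = 0.0206). Of 22 called list genes 14 kept their call in every alternative that tested them, which was 24 of the 25 for Efna2 and 22 for Gfra2. Same-numbered libraries did not deviate together (r = 0.00102, 0.0154, 0.095 and 0.00415), so the numbers were not taken as pairs, and only number 3 correlated best with its own. The fit with a replicate block gave 12 receptors higher and 7 lower (Fgfr1 adjusted p = 0.0570), and 2187 and 2244 genes in all. Depth is unknown, so it could not be set against any value.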
